A study of Mus musculus with 9 samples.

Results

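The genes described here are 43 genes of mitosis: cyclins, mitotic kinases, the chromosomal passenger complex, the spindle checkpoint, the kinetochore, kinesin motors, spindle assembly factors and cytokinesis factors. They were taken by symbol from a list of mitotic functions, which was drawn up with earlier results of these data known, and all 43 are among the 12474 rows (12467 distinct gene names) that each library holds. The libraries are polyadenylated RNA of RAW264.7, a mouse macrophage line (genotype WT in the labels) that divides in culture, in 3 groups of 3. Mock cells were not polarized. The M1 group was polarized with lipopolysaccharide (LPS, a bacterial cell wall component) at 100 ng/ml and mouse interferon gamma (mIFNγ) at 50 ng/ml, and the I group received the same plus potassium iodide at 20 mM during polarization. All groups share 1 cell line, and no group received iodide without polarization or another salt. Effects of iodide, potassium and osmolarity therefore cannot be told apart. The labels name no length of treatment and no culture of origin for a library. The p-values therefore rest on the spread between libraries alone, and that spread may be technical.

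A cell enters mitosis when cyclin B binds and activates the kinase Cdk1. The chromosomes condense, a bipolar spindle of microtubules forms, and kinetochores on the centromeres attach each chromosome to it. The spindle checkpoint holds the cell until attachment is complete, after which the anaphase-promoting complex (APC/C) tags cyclin B and securin for destruction, the chromosomes separate and a contractile ring divides the cell. Most of these genes are transcribed mainly in late S phase, G2 and mitosis, so their RNA is abundant in populations with many dividing cells and low in resting cells. In bulk RNA, fewer dividing cells and less RNA per cell cannot be told apart.

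Promoters of genes expressed in G2 and mitosis are known for a sequence called the cell cycle homology region (CHR), bound by the DREAM and MuvB complexes, and for CCAAT boxes bound by NF-Y. Of the 43 genes, 37 have an entry in the RefSeq promoter windows used here (GRCm38.p6, 250 bases before to 50 bases after the transcript start). Printed are the windows of the 4 genes in the table with the largest falls in M1 that hold a CHR motif. The window of Cenpa, the smallest fall among the genes in the table, is printed too. All 5 carry both motifs, but a CHR motif was required of the first 4. Each runs 5′ to 3′ on the gene's strand, and capitals mark the CHR letters (TTTGAA or TTCGAA, searched on both strands) and CCAAT or its reverse complement ATTGG.
Ccnb2: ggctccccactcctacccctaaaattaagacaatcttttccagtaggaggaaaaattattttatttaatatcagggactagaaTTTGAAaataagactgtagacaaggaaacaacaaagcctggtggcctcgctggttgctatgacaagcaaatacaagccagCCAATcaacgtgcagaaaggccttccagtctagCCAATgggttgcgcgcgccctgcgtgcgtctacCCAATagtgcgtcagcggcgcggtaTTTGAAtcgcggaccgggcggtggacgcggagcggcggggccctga
Cdc20: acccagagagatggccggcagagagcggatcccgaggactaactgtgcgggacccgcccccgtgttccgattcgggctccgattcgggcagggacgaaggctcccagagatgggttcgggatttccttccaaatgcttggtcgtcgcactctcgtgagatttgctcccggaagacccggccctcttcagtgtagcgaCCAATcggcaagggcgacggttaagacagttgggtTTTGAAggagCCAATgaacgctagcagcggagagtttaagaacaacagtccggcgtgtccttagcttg
Mki67: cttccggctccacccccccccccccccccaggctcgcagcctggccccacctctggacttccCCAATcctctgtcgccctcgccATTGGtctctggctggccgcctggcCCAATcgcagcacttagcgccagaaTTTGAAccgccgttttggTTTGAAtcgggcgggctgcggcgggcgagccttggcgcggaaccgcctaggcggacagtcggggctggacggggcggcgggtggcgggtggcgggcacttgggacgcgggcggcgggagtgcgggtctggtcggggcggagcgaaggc
Plk1: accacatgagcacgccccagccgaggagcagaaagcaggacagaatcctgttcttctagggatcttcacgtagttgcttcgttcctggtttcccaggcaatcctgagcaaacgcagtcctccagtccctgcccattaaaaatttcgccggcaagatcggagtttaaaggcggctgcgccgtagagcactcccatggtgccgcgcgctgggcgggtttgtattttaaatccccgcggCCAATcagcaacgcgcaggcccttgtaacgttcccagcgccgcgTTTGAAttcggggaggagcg
Cenpa: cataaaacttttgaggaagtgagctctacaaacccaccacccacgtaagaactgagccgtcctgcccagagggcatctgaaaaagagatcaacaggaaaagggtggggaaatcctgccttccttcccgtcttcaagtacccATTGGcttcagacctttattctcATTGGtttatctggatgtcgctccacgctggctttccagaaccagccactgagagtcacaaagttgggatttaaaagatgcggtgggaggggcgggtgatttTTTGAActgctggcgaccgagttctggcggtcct

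The Ccnb2 window lies at chr9:70421505-70421804 on the minus strand and the Cdc20 window at chr4:118437294-118437593 on the minus strand. Those of Mki67 (chr7:135716330-135716629, minus), Plk1 (chr7:122159185-122159484, plus) and Cenpa (chr5:30666636-30666935, plus) follow, and each spans the start of its gene. In Ccnb2 the CCAAT letters begin at positions −87, −54 and −21 relative to the start, and TTTGAA begins at −167 and at 5. Across the 37 genes, 30 (81.1%) held CHR letters somewhere in the window, against 19.2% of all 32851 RefSeq windows of the same length and 17% of the 9559 genes that are both in the files and in the table. CCAAT letters were in 28 of 37 (75.7%), against 37.4% of all windows and 43.3% of those 9559 genes. Both together were in 26 (70.3%), against 7.52% and 7.08%. CHR letters that begin in the last 100 bases of the window were in 28 of 37 (75.7%), against 5.31% of windows and 4.5% of the 9559 genes. The windows of Cenpe, Nusap1, Ccnb1, Knstrn, Birc5, Nuf2 and Mad2l1 held no CHR letters. A match is a description of letters and not of binding, and Cenpa, which fell least in M1 among these 37 genes, holds the same pair of motifs as Ccnb2, which fell most. Ccna2, Aurkb, Incenp, Spc24, Kif20a and Tpx2 are named only.

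Levels are FPKM, fragment counts scaled to the length of the gene and the size of the library. The library totals recovered from these values were 17431070 to 25470730 fragments, so a single fragment on a 1-kb gene is worth 0.0393 to 0.0574 FPKM. Within a group, 2 libraries correlated across genes at r = 0.9973 to 0.9977 (Pearson, log2 scale; genes are not independent replicates). In Mock the mean level of the 43 genes ran from 5.33 FPKM (Mad2l1) to 58.2 (Mki67), with a median of 14.4. Summed over the 43 genes, the level was 780.5, 793.4 and 799.1 FPKM in the Mock libraries, 108.5, 109.4 and 115.5 in M1, and 81.7, 83.7 and 85.1 in I. The summed level thus separated the 3 groups without overlap.

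**Figure D1:**
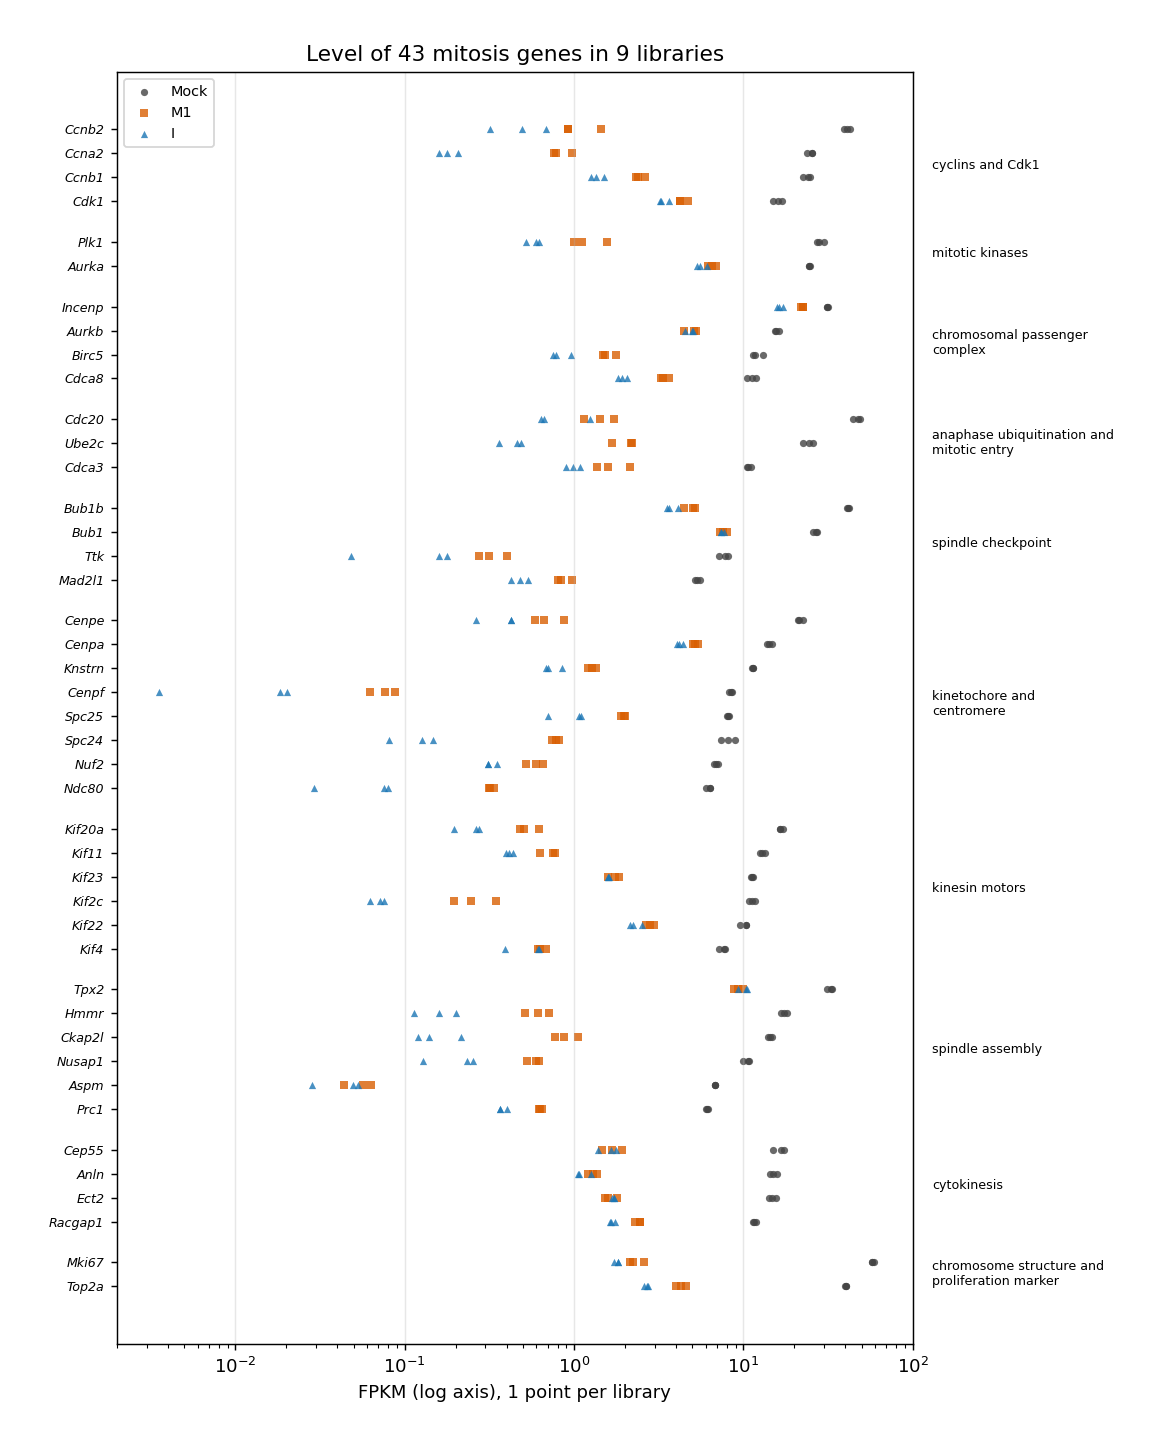
FPKM of the 43 mitosis genes on a log axis, 1 point per library (circles Mock, squares M1, triangles I), grouped by role and ordered by the Mock mean. For every gene the 3 Mock points lie to the right of the M1 and I points, and the I points of Cenpf reach down to 0.00353 FPKM, a single fragment.

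The comparison of M1 with Mock asks what polarization did to these genes. All 43 were lower in M1, each with 3 M1 libraries below the 3 Mock libraries, and the median gene kept 10.3% of its Mock mean. A gene was called at a limma adjusted p under 0.05 (Benjamini-Hochberg over the 11156 genes tested), and 55.3% of all genes tested were called lower and 30.5% higher, so being lower is common in this comparison. The size of the fall was less common. At least 2-fold lower (called, and a ratio of mean FPKM of 2 or more) were 42 of 43, against 24.5% of all genes, and at least 10-fold lower were 21 of 43, against 1.49%. Lower without overlap between the groups were 43, against 55.6% of all genes. The median log2 fold change was −2.59, against −0.23 over all genes tested, on the log2(FPKM + 1) scale, where the added 1 shrinks the changes of low genes. Ranked by the fall on this scale, 16 of the 43 were among the 50 largest falls of all genes and 30 among the 200 largest.

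**Figure D2:**
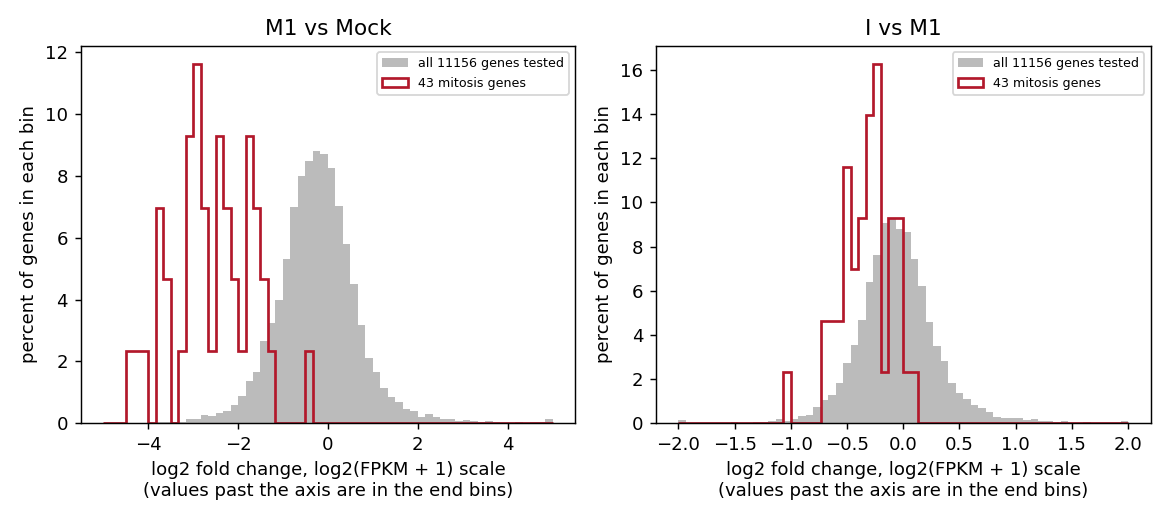
Distribution of log2 fold changes on the log2(FPKM + 1) scale for M1 vs Mock (left) and I vs M1 (right), as percent of genes per bin, for all 11156 genes tested (grey) and the 43 mitosis genes (red outline). On the left the red outline sits at a median of −2.59 against −0.23 for all genes, and on the right at −0.31 against −0.07.

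Ttk, Cenpf, Ndc80, Kif20a, Kif2c and Aspm passed the filter on low values only through Mock. Without any filter the counts of called mitosis genes were the same. With median-of-ratios (RLE) scaling the median of all genes moved from −0.23 to 0.03. The split of all calls moved from 3405 higher and 6166 lower to 4881 higher (43.9%) and 4638 lower (41.7%). The 43 genes were still called lower with that scaling, with a median of −2.32, and also by limma-voom on recovered fragments, against 55.9% of genes in that fit.

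Among the cyclins and their kinase, Ccnb2, a B-type cyclin that activates Cdk1, fell most. It stood at 42.9, 39.2 and 41.2 FPKM in Mock, 1.44, 0.926 and 0.919 in M1 and 0.493, 0.32 and 0.679 in I. The M1 mean was 37.5-fold lower than the Mock mean (log2 fold change −4.34 ± 0.1 SE, limma adjusted p = 1.34e-11). Ccna2, cyclin A2, which acts with Cdk2 in S phase and Cdk1 in G2, was at 25.3, 25.3 and 23.9 in Mock, 0.972, 0.784 and 0.758 in M1 and 0.208, 0.16 and 0.178 in I. Ccnb1, the main mitotic cyclin, was at 22.6, 24 and 24.8 in Mock, 2.61, 2.31 and 2.39 in M1 and 1.35, 1.51 and 1.26 in I. Cdk1 itself was at 16, 16.9 and 15.1 in Mock, 4.74, 4.24 and 4.22 in M1 and 3.24, 3.66 and 3.29 in I. The kinase kept 27.5% of its Mock level in M1, where the 3 cyclins kept 2.67% to 10.2%. In these 4 genes the 3 groups formed 3 separate steps, Mock above M1 above I, with no overlap.

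Of the mitotic kinases, Plk1, which drives centrosome maturation and spindle assembly, was at 29.9, 27.4 and 28 FPKM in Mock, 1.12, 1.56 and 0.998 in M1 and 0.622, 0.594 and 0.52 in I. Its M1 mean was 4.31% of Mock (log2 fold change −3.73 ± 0.082 SE, adjusted p = 7.01e-12). Aurka, the centrosomal Aurora kinase, was at 24.3, 24.7 and 24.5 in Mock and 6.89, 6.16 and 6.54 in M1, or 26.7% of Mock. Aurka and Plk1 began at similar levels, and in M1 every Aurka value was above every Plk1 value.

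The chromosomal passenger complex, which corrects wrong attachments between kinetochores and microtubules, fell less. Its scaffold Incenp was the mildest case of the 43, at 31.2, 31.4 and 31.8 FPKM in Mock, 22.6, 22.5 and 22 in M1 and 15.9, 16.3 and 17.1 in I. Incenp kept 71% of its Mock level in M1 (log2 fold change −0.48 ± 0.031 SE, adjusted p = 5.42e-08) and was the 1 gene under a 2-fold change. The complex's kinase Aurkb was at 15.3, 16.3 and 15.6 in Mock and 5.1, 5.26 and 4.49 in M1, or 31.5%. Cdca8 (borealin) kept 30.4% and Birc5 (survivin) 13.2%. The 4 subunits thus did not fall in proportion, and none of them was at or below 10% of Mock in M1.

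Of the 3 genes of anaphase ubiquitination and mitotic entry, Cdc20 fell most. Cdc20, the APC/C activator that the spindle checkpoint restrains, went from 48.6, 44.3 and 47.6 FPKM in Mock to 1.43, 1.71 and 1.15 in M1, with 1.24, 0.641 and 0.668 in I. Its log2 fold change in M1 was −4.31 ± 0.12 SE (adjusted p = 3.29e-11), a 32.8-fold difference of means. Ube2c, the ubiquitin-conjugating enzyme of the APC/C, kept 8.35% and Cdca3, which promotes mitotic entry by degrading the Wee1 kinase, kept 15.9%. The 3 genes thus kept shares from 3.05% to 15.9%.

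In the spindle checkpoint the 4 genes spread from 4.29% to 28.6% of Mock. Bub1b (BubR1), which with Mad2 inhibits Cdc20, was at 41.8, 42 and 40.7 FPKM in Mock and 5.08, 4.49 and 5.16 in M1. Bub1, a kinetochore kinase that recruits the checkpoint, was at 26.7, 27.3 and 25.7 in Mock and 8.02, 7.54 and 7.24 in M1. Ttk (Mps1), the kinase that starts the checkpoint signal, was at 8.16, 7.76 and 7.16 in Mock and 0.317, 0.4 and 0.275 in M1, and Mad2l1 kept 16.3%. Of these 4, Bub1 thus kept the largest share of its level and Ttk the smallest.

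The 8 kinetochore and centromere genes fell to between 0.897% and 36.5% of Mock. Cenpf, a large outer kinetochore protein, was at 8.55, 8.46 and 8.27 FPKM in Mock and 0.0879, 0.0622 and 0.0766 in M1, a 112-fold difference of means that rests on 69 fragments in M1. Cenpe, the kinesin that moves chromosomes to the spindle equator, was at 22.4, 21.5 and 21.1 in Mock and 0.665, 0.589 and 0.875 in M1 (log2 fold change −3.73 ± 0.071 SE, adjusted p = 2.39e-12). Cenpa, the histone variant that marks the centromere, was at 14.8, 13.8 and 14.2 in Mock and 5.04, 5.42 and 5.17 in M1 (−1.30 ± 0.043 SE, adjusted p = 1.71e-10). The RNA of the centromere's histone thus stayed at 36.5% of Mock, while that of the outer kinetochore protein Cenpf was at 0.897%.

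The Ndc80 complex, a kinetochore complex of 4 subunits that binds microtubules, is fully in the list. Its subunits were at similar levels in Mock, with Ndc80 at 6.34, 6.33 and 6.03 FPKM, Nuf2 at 7.09, 6.86 and 6.71, Spc24 at 8.09, 7.38 and 8.88 and Spc25 at 8.01, 8.12 and 8.28. In M1 they were at 0.317, 0.317 and 0.338 for Ndc80, 0.658, 0.599 and 0.524 for Nuf2, 0.82, 0.747 and 0.788 for Spc24 and 1.97, 1.91 and 2.01 for Spc25. The order of the 4 in M1 had no overlap between neighbours, from 5.2% of Mock for Ndc80 to 24.1% for Spc25. Knstrn, a kinetochore and spindle protein, kept 11.2%.

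The 6 kinesin motors in the list kept 2.34% to 28% of Mock. Kif2c (MCAK), which takes apart microtubules at kinetochores, was at 11.2, 11.7 and 10.8 FPKM in Mock and 0.196, 0.346 and 0.245 in M1, a 42.8-fold difference of means. Kif20a, a motor of the central spindle, kept 3.2%, Kif11 (Eg5), which pushes the spindle poles apart, 5.53%, and the chromokinesin Kif4 8.54%. Kif23, part of the centralspindlin complex, kept 15.4% and the chromokinesin Kif22 28%. In each of the 6 the lowest Mock library was above the highest M1 library by at least 3-fold.

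Among the spindle assembly factors Aspm, which organizes spindle poles, showed the largest ratio of all 43 genes. It was at 6.78, 6.79 and 6.78 FPKM in Mock and 0.0564, 0.0631 and 0.0437 in M1, where it held 38 fragments over 3 libraries, against 4958 in Mock. Hmmr, a microtubule-binding protein of the spindle, was at 17.5, 18.1 and 16.8 in Mock and 0.713, 0.514 and 0.612 in M1 (log2 fold change −3.52 ± 0.059 SE, adjusted p = 9.21e-13). Tpx2, which activates Aurora A and nucleates spindle microtubules, was at 33.5, 32.8 and 31 in Mock and 10, 8.76 and 9.28 in M1, or 28.8%. Nusap1, Ckap2l and Prc1, which bundle or bind spindle microtubules, kept 5.55%, 6.26% and 10.4%. Tpx2 and Aurka, which encode partner proteins, kept 28.8% and 26.7%. Cdk1 (27.5%), Kif22 (28%) and Bub1 (28.6%) lay between them, so a similar share was not particular to these partners.

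The 4 cytokinesis genes kept 8.55% to 20.6%. Anln (anillin), a scaffold of the contractile ring, was at 15.9, 15.1 and 14.4 FPKM in Mock and 1.36, 1.21 and 1.3 in M1. Ect2, which activates RhoA at the ring, was at 15.6, 14.8 and 14.2 in Mock and 1.79, 1.52 and 1.6 in M1, and Cep55, which recruits the abscission machinery, kept 10.4%. Racgap1, the partner of Kif23 in centralspindlin, was at 11.6, 11.9 and 11.5 in Mock and 2.46, 2.44 and 2.29 in M1. Mki67, the gene of the proliferation marker Ki-67, was at 59.5, 57.7 and 57.4 in Mock, 2.22, 2.14 and 2.6 in M1 and 1.72, 1.82 and 1.83 in I, with a log2 fold change in M1 of −4.16 ± 0.052 SE (adjusted p = 1.07e-13). Top2a, the topoisomerase that untangles sister chromosomes, was at 40.5, 40.6 and 39.6 in Mock and 4.62, 4 and 4.28 in M1. Ki-67 RNA was the most abundant of the 43 in Mock and had rank 4 of all 11156 genes by its fall on this scale.

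**Figure D3:**
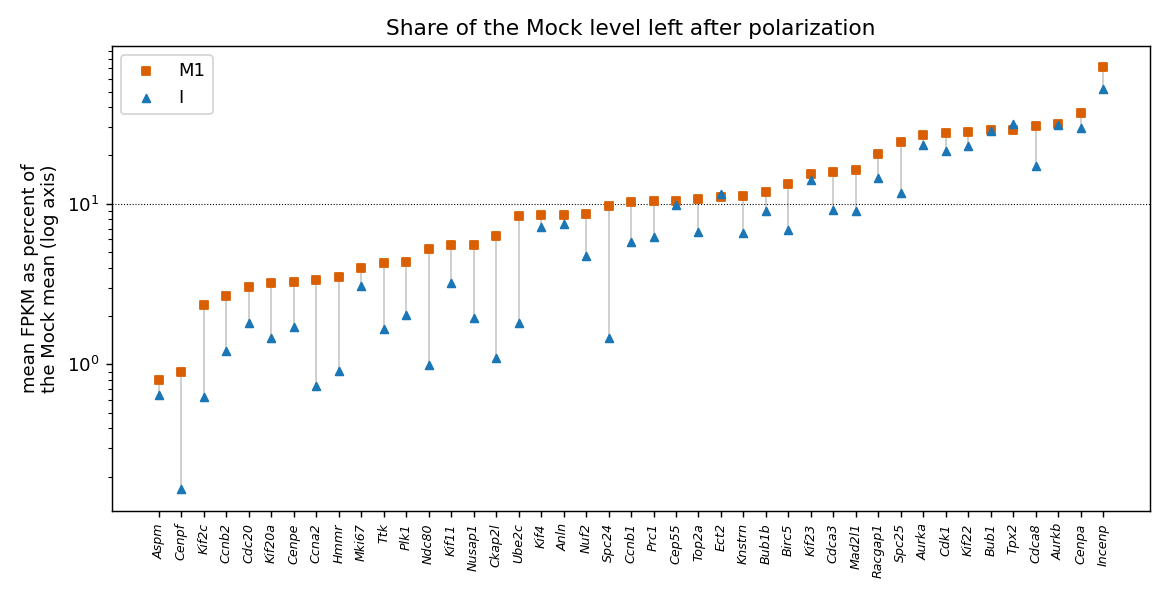
Mean FPKM in M1 (squares) and I (triangles) as percent of the Mock mean, on a log axis, for the 43 genes ordered by their M1 value, with a dotted line at 10%. The M1 values run from 0.802% (Aspm) to 71% (Incenp), 21 of them under 10%, and the grey lines to the I values are long for genes such as Spc24 and short for Ect2 and Bub1.

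Over 20% of the Mock level was kept in M1 by 11 of the 43 genes, Cdk1, Aurka, Aurkb, Incenp, Cdca8, Bub1, Cenpa, Spc25, Kif22, Tpx2 and Racgap1. At the other end 12 kept under 5%. Incenp was the most abundant of the 43 in M1 at 22.4 FPKM, where Mki67 had been in Mock. Of the 43 genes 12 share exon bases with a gene on the other strand, and whether the authors counted by strand is not given in the sources used here, so their levels are uncertain. Among them are Kif20a with Cdc23, Prc1 with Rccd1, Kif4 with Pdzd11, Ube2c with Tnnc2, Ccna2 with Exosc9 and Cdc20 with Elovl1. Ccnb1, Ccnb2, Kif4 and Kif22 have annotated pseudogene copies that could share their reads.

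The comparison of I with M1 asks what potassium iodide changed during polarization. Of the 43 genes, already low in M1, 33 were lower in I than in M1, 0 were higher and 10 were not called. Over all genes tested 39.3% were called lower and 24.9% higher. At least 2-fold lower were 13 of 43, against 2.94% of all genes, and the median I level was 58.4% of M1. Lower without overlap were 33, against 40.8%, a count that includes Cenpf, which was not called, and leaves out Cdc20, which was called although its I value of 1.24 FPKM lies among the M1 values. The median log2 fold change was −0.31, against −0.07 over all genes. The count of 0 higher held at an unadjusted p under 0.05 in limma and in limma-voom.

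Low genes reach larger ratios more easily, so the same counts were taken among the 3095 tested genes with an M1 mean under 2.5 FPKM, 32 of which are mitosis genes. There, 25 of 32 were called lower, against 24.5% of the low genes, and 13 were at least 2-fold lower, against 5.85%. This set was picked by its M1 level, after a filter that a gene can pass through its I libraries alone. Such genes are high in I, which lowers the share called lower. Ttk, Ndc80, Kif20a and Kif2c passed only through Mock, so these shares are not a like background and cannot show what low levels add. Since log2(FPKM + 1) compresses such levels, limma-voom on the whole fragments recovered from the FPKM values was also fitted. It called 34 of the 43 lower, against 40.3% of 10766 genes. These were the same 33 and Cenpf, and the median log2 fold change was −0.78. Fold changes for iodide below are from that fit where they carry a 95% interval.

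**Figure D4:**
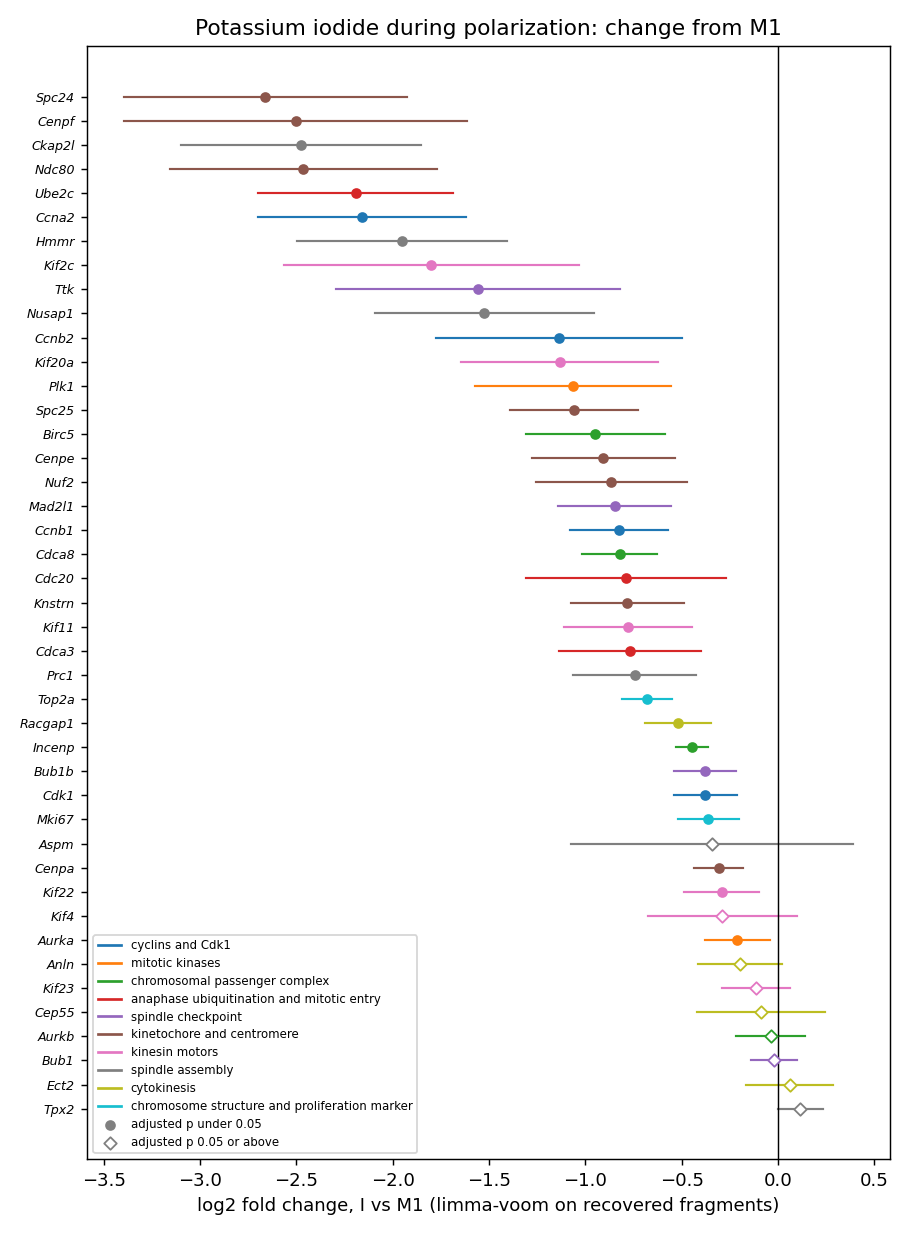
Log2 fold change of the 43 genes in I vs M1 from limma-voom on recovered fragments, with 95% confidence intervals, ordered by size and coloured by role. Filled circles mark an adjusted p under 0.05 (34 genes, all below 0) and open diamonds the other 9, whose intervals cross 0, among them 3 of the 4 cytokinesis genes.

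The 13 genes at least 2-fold lower with iodide were Ccna2, Ccnb2, Plk1, Ube2c, Ttk, Ndc80, Spc24, Spc25, Kif20a, Kif2c, Nusap1, Hmmr and Ckap2l. Ube2c showed the largest fall on the log2(FPKM + 1) scale, from 2.17, 2.22 and 1.67 FPKM in M1 to 0.49, 0.461 and 0.36 in I (−1.07 ± 0.079 SE, limma adjusted p = 8.59e-07). Ccna2 in I was at 0.224 times its M1 level (95% interval 0.154 to 0.326, limma-voom adjusted p = 8.7e-09). Over the 3 libraries of each group Ccna2 had 204 fragments in M1 and 44 in I. In both genes the highest I library was below 0.5 FPKM and the lowest M1 library above it.

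The largest ratio was in the Ndc80 complex. Spc24 went from 0.82, 0.747 and 0.788 FPKM in M1 to 0.147, 0.127 and 0.0808 in I, or 15.1% of M1, on 120 and 18 fragments. Ndc80 went from 0.317, 0.317 and 0.338 to 0.0291, 0.0755 and 0.0801, or 19% of M1, on 125 and 23 fragments. Spc25 kept 48.5% and Nuf2 54.7%, each without overlap. Spc24 and Nuf2 thus differed in how far they fell, with 95% intervals of 0.095 to 0.263 and 0.418 to 0.72 that do not meet. The interval of Ndc80 (0.112 to 0.293) overlaps that of Spc24, and the interval of Spc25 (0.381 to 0.605) overlaps that of Nuf2.

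Spindle genes were among the larger falls with iodide too. Ckap2l went from 0.769, 0.875 and 1.06 FPKM in M1 to 0.12, 0.139 and 0.215 in I, Hmmr from 0.713, 0.514 and 0.612 to 0.113, 0.16 and 0.201, and Nusap1 from 0.619, 0.529 and 0.596 to 0.232, 0.255 and 0.128. In I they held 29, 50 and 49 fragments over 3 libraries. Kif2c kept 26.6% of its M1 level, Ttk 38.7%, Ccnb2 45.4%, Kif20a 45.6% and Plk1 47.2%. Cenpf, with 27, 21 and 21 fragments in M1 and 6, 1 and 6 in I, was not called on the log2(FPKM + 1) scale (limma adjusted p = 0.133) and was at 0.176 times its M1 level in limma-voom (95% interval 0.0951 to 0.327, adjusted p = 6.06e-06). Cenpf, Ndc80, Spc24, Kif2c and Ckap2l each had fewer than 30 fragments over the 3 I libraries, so the size of their falls is the least certain.

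Other genes fell by less than 2-fold with iodide. Incenp went from 22.6, 22.5 and 22 FPKM in M1 to 15.9, 16.3 and 17.1 in I (0.734 times, 95% interval 0.693 to 0.777, limma-voom adjusted p = 6.29e-12). Top2a went from 4.62, 4 and 4.28 to 2.58, 2.74 and 2.71 (0.624 times, 0.571 to 0.682, adjusted p = 1.12e-11). Cdca8 kept 56.6% of M1, Ccnb1 56.4%, Birc5 52%, Racgap1 69.9%, Bub1b 76.7%, Cdk1 77.2%, Mki67 77.2% and Cenpa 80.8%. Aurka kept 86.6% and Kif22 81.7%, and these 2 calls depend on the scaling. Aurka had an adjusted p of 0.0602 with trimmed-mean (TMM) scaling and Kif22 an adjusted p of 0.0555 with quantile normalization.

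Of the 10 genes that were not called, 3 are cytokinesis genes, out of 4 in the list. Of 15 other cytokinesis and abscission genes, 8 were lower in I than in M1 and 2 higher, against 39.3% and 24.9% of all genes. Their median log2 fold change was −0.10, near the −0.07 of all genes. The call of the ESCRT gene Vps4a was lost with RLE scaling (limma adjusted p = 0.393). So few genes cannot tell this list from the background. Ect2 was at 1.79, 1.52 and 1.6 FPKM in M1 and 1.72, 1.72 and 1.67 in I, Cep55 at 1.92, 1.68 and 1.47 against 1.38, 1.78 and 1.66, and Anln at 1.36, 1.21 and 1.3 against 1.06, 1.26 and 1.07. Their limma-voom ratios of I to M1 had 95% intervals of 0.892 to 1.22, 0.747 to 1.18 and 0.749 to 1.01. These intervals leave out a 2-fold fall in each, and Anln was called when I library 2 was left out (limma adjusted p = 0.0464). Kif23 was at 1.59, 1.75 and 1.84 in M1 and 1.6, 1.59 and 1.59 in I (0.817 to 1.05), although its centralspindlin partner Racgap1 fell.

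Bub1 was at 8.02, 7.54 and 7.24 FPKM in M1 and 7.43, 7.41 and 7.67 in I, with an interval of 0.908 to 1.07. Aurkb was at 5.1, 5.26 and 4.49 against 4.53, 4.99 and 5.05 (0.861 to 1.1). In both genes the I and M1 values overlap. The interval was 0.626 to 1.07 for Kif4 and 0.475 to 1.31 for Aspm, which held 38 fragments in M1 and 30 in I, so the interval of Aspm includes a 2-fold fall as well as no change. Tpx2 was at 10, 8.76 and 9.28 in M1 and 10.4, 10.6 and 9.37 in I, the largest I to M1 ratio of the 43 (108%, interval 0.999 to 1.18). It was not called with the library total as scale (limma adjusted p = 0.125) and was called higher with RLE, TMM, upper quartile and quantile scaling (adjusted p = 0.0198 to 0.0384). With RLE scaling 30.6% of all genes were called higher in I and 32.6% lower. It was also called higher without M1 library 1 (adjusted p = 0.0397) and without I library 3 (adjusted p = 0.033).

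In I vs Mock, which shares its Mock libraries with the first comparison and its I libraries with the second, all 43 genes were lower, against 58.6% of all genes (28.2% were higher). With RLE scaling all 43 stayed lower, while the calls over all genes went from 3146 higher and 6534 lower to 4797 higher (43.2%) and 4717 lower (42.4%), and limma-voom called 58.8% lower. At least 2-fold lower were 42, against 26.8%, and at least 10-fold lower 30, against 2.06%. The 30 include the 6 genes that passed the filter only through Mock. The median gene was at 6.53% of Mock, where the first comparison gave 10.3%. Ccna2 was 137-fold below its Mock mean in I (log2 fold change −4.45 ± 0.055 SE, limma adjusted p = 9.58e-14), Mki67 32.5-fold and Incenp, again the mildest, 1.92-fold. The I level was over 20% of Mock in 8 genes: Cdk1, Aurka, Aurkb, Incenp, Bub1, Cenpa, Kif22 and Tpx2.

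Other cell cycle genes were counted from 9 lists that leave out the 43. In M1 55.3% of all genes were lower and 30.5% higher (41.7% and 43.9% with RLE scaling). The lists closest in function fell with the 43. Of 24 condensin and cohesin genes, which fold and hold chromosomes, 23 were called lower and 0 higher (median log2 fold change −1.71), and with RLE scaling 22 lower and 2 higher. Smc2, a condensin subunit, went from 31.2, 30.6 and 29.2 FPKM to 4.03, 3.7 and 4.23, the separase gene Espl1 from 6.97, 6.66 and 6.97 to 0.304, 0.272 and 0.264, and the condensin subunit Ncapd2 from 18.4, 17.7 and 17.8 to 2.57, 2.53 and 2.67. In none of the 3 did the M1 and Mock libraries overlap. With iodide 6 of the 24 were lower and 8 higher than M1, where 39.3% of all genes were lower and 24.9% higher, and Espl1 (35% of M1) and Ncapd2 (83.3%) were among the lower.

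Of 32 other kinetochore and centromere genes 29 were lower and 1 higher in M1 (median −1.11), and of 37 other spindle, kinesin and centrosome genes 34 were lower and 2 higher (median −1.29). The kinetochore scaffold Knl1 kept 4.17% of Mock, the checkpoint gene Kntc1 4.05%, the kinesin Kif20b 2.7%, the GTPase Ran 38.2% and the spindle gene Troap 3.86%. The other way went Zwint, which joins the checkpoint complex RZZ to the kinetochore, at 20.3, 19.6 and 20.7 FPKM in Mock and 37.2, 35.3 and 36.5 in M1 (log2 fold change 0.82 ± 0.036 SE, adjusted p = 1.71e-09). Psrc1, a microtubule-binding protein, went from 7.53, 7.98 and 8.54 to 15.9, 17.3 and 15.9 and was back at 7.11, 7.31 and 8.7 in I. Haus2 of the augmin complex was at 109% of Mock. In I vs M1 these lists had 16 lower and 2 higher of 32 (11 and 6 with RLE scaling), and 18 lower and 9 higher of 37 (16 and 12). Set beside 39.3% lower and 24.9% higher over all genes (32.6% and 30.6% with RLE scaling), the spindle counts and the kinetochore count of lower genes with RLE scaling are near the background.

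S phase genes fell about as broadly in M1, 19 lower and 1 higher of 20 (median −2.02). The replication helicase genes Mcm7, Mcm6 and Mcm4 kept 11.4%, 7.09% and 21.3% of Mock. Cdt1, which loads that helicase, was higher, at 20, 21.1 and 20.1 FPKM in Mock and 31.9, 32.3 and 34.6 in M1. With iodide 14 of the 20 were lower than M1 and 2 higher, against 39.3% and 24.9% of all genes. With RLE scaling the counts were 13 and 3, against 32.6% and 30.6%. Mcm7 was among the 2 higher genes of the main fit, from 2.75, 2.55 and 2.85 to 4.2, 4.19 and 4.35 (limma adjusted p = 1.77e-06).

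**Figure D5:**
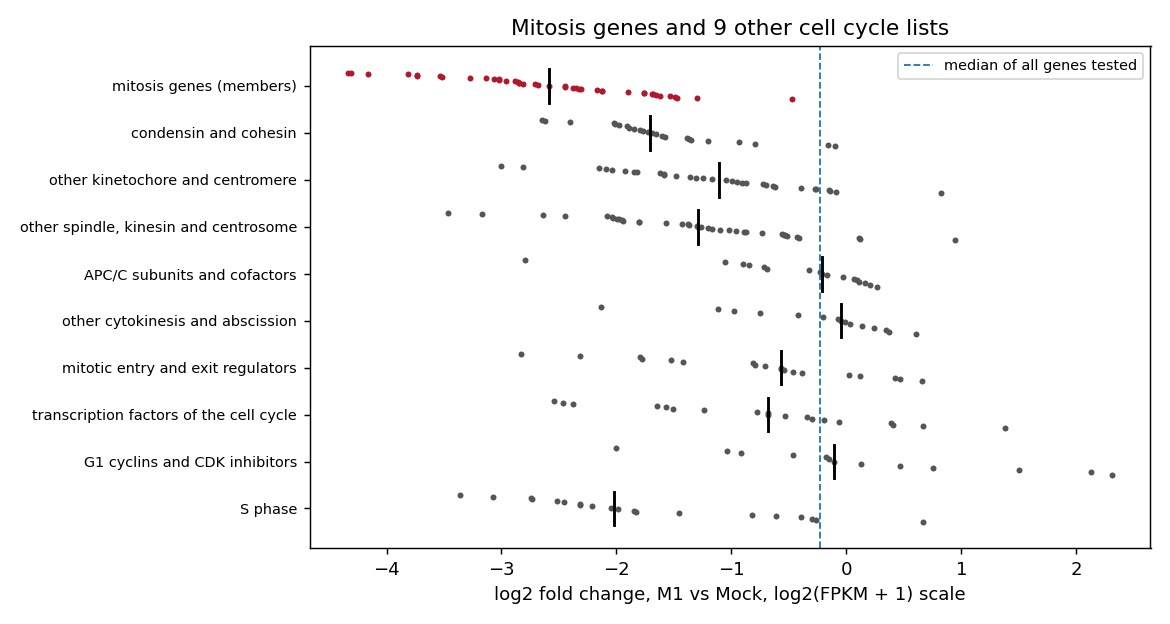
Log2 fold change in M1 vs Mock, on the log2(FPKM + 1) scale, for each tested gene of the 43 mitosis genes (red) and of 9 other cell cycle lists (grey), with the list median as a black bar and the median of all genes tested (−0.23) as a dashed line. The medians of the mitosis, S phase and condensin and cohesin genes are −2.59, −2.02 and −1.71, while those of the APC/C and other cytokinesis genes (−0.21 and −0.05) lie near the dashed line.

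The 17 other APC/C subunits and cofactors had 10 lower and 4 higher in M1 (median −0.21), and 7 lower and 8 higher with RLE scaling. These shares are near those of all genes, 55.3% lower and 30.5% higher, or 41.7% and 43.9% with RLE scaling, and the same holds for the other cytokinesis genes. Within that list the APC/C inhibitor Fbxo5 (Emi1) kept 5.94% of Mock, Anapc5 47% and Anapc1 51.2%, while Anapc4 was at 122% and Anapc16 at 119%. Fzr1 (Cdh1), the APC/C activator of G1, was at 11.4, 11.8 and 12.2 FPKM in Mock and 9.66, 11.1 and 10.5 in M1, a small fall (adjusted p = 0.0104) that became 0.12 on the log2 scale in the other direction with RLE scaling (adjusted p = 0.0499). Cdc20 and Fzr1, the 2 activators, thus differed, at 3.05% and 88.2% of Mock. Of 15 other cytokinesis and abscission genes 7 were lower and 5 higher (5 and 8 with RLE scaling), with Shcbp1 at 6.77%, Septin11 at 49.1% and Cit (citron kinase) at 13.6% of Mock, and Septin9 at 154% and the ESCRT gene Vps4a at 129%.

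Regulators of mitotic entry and exit had 14 lower and 4 higher of 19 in M1, against 55.3% lower and 30.5% higher of all genes. Cdca2, which targets a phosphatase to chromosomes, kept 11.7%, Cks1b, a Cdk-binding subunit, 12.8% and Wee1, the kinase that inhibits Cdk1, 16.5%. Ppp1ca, a phosphatase, was at 139%. Cks2, the close relative of Cks1b, was at 18.7, 21.1 and 22.6 FPKM in Mock, 33.8, 32.1 and 34.2 in M1 and 79.3, 68.5 and 75.8 in I. Cks2 was thus higher in M1 and higher again in I (log2 fold change 1.14 in I vs M1, adjusted p = 1.62e-07), where Cks1b fell to 5.36 to 5.66 FPKM.

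Transcription factors that control these genes had 14 lower and 4 higher of 19 in M1, against 55.3% lower and 30.5% higher of all genes. With RLE scaling the counts were 11 and 5, against 41.7% and 43.9%. Foxm1, an activator of G2 and M genes, was at 13.1, 13.5 and 12.8 FPKM in Mock, 1.9, 1.64 and 1.62 in M1 and 1.29, 1.17 and 1.07 in I. Mybl2 (B-Myb), its partner on CHR promoters, was at 9.46, 9.12 and 8.57 in Mock, 0.944, 0.691 and 0.814 in M1 and 0.631, 0.505 and 0.617 in I. Lin54, the subunit of DREAM and MuvB that binds the CHR, was higher, at 7.29, 7.89 and 7.33 in Mock, 21.4, 21.1 and 21 in M1 and 23.4, 23.9 and 24.6 in I (log2 fold change in M1 1.38 ± 0.036 SE, adjusted p = 2.14e-11). The 2 pocket protein genes Rbl1 and Rb1, whose products repress E2F targets, went opposite ways, at 12.4% and 168% of Mock. The E2F partner Tfdp1 kept 30.3%. E2f1 was not called in M1 (log2 fold change −0.07, adjusted p = 0.282) and was called higher with RLE scaling (0.21, adjusted p = 0.00504).

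The G1 cyclins and Cdk inhibitors had 6 lower and 5 higher of 13 in M1, against 55.3% lower and 30.5% higher of all genes. With RLE scaling 4 were lower and 8 higher, against 41.7% and 43.9%. The list thus had no common direction, and the genes below are single cases. The inhibitor Cdkn1a (p21) was at 124, 129 and 132 FPKM in Mock, 353, 374 and 365 in M1 and 441, 429 and 431 in I, and Cdkn2d (p19) at 459% of Mock in M1. Cdkn1b (p27) was at 16.3, 16.2 and 15.6 in Mock, 23.6, 22.5 and 21.6 in M1 and 34.1, 35.9 and 35.8 in I. Ccnd1, the G1 cyclin induced by growth factors, was at 232, 231 and 237 in Mock, 121, 124 and 125 in M1 and 48, 49.5 and 51.4 in I (log2 fold change in I vs M1 −1.30, adjusted p = 1.13e-10). For each of Cdkn1a, Cdkn1b and Ccnd1 the 3 groups formed separate steps in the order Mock, M1, I, upward for the inhibitors and downward for the cyclin. Ccnd3 was at 175% of Mock in M1, and Myc rose from 0.289, 0.232 and 0.346 to 5.44, 5.4 and 5.37.

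All 10 macrophage markers listed are in the files. Their summed level ranged over the libraries from 4718 to 4808 FPKM for Mock, from 3347 to 3457 for M1 and from 2454 to 2567 for I. Of the 9 tested 5 were lower and 4 higher in M1, against 55.3% and 30.5% of all genes. In I vs M1, 7 were lower and 2 higher, against 39.3% and 24.9%. Mertk, under the filter, stayed at or below 0.3 FPKM in the 9 libraries. The growth factor receptor Csf1r, through which macrophages receive a signal to divide, was at 346, 343 and 339 in Mock, 68.9, 70.9 and 69.5 in M1 and 96.7, 97.1 and 94.5 in I. Csf1r is the extreme of the 9, with the lowest share of Mock in M1 (20.4%) and the highest I to M1 ratio (138%). Its part in the fall of the mitosis genes was not tested. Of other cell types, 1 of 7 T cell markers (Lck, 3.29 to 5.26 FPKM over all libraries) and 1 of 5 B cell markers (Pax5, 0.013 to 0.0533) are in the files. Of the markers looked up for neutrophils, fibroblasts and epithelial cells, 0 of 6, 0 of 6 and 0 of 5 had a row. Csf1r was above Lck and Pax5 in every library, while Mertk was below Lck in every library.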

How the data were processed

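The 9 libraries are poly-T purified RNA prepared with a NEBNext Ultra kit and sequenced on an Illumina platform, per the labels' protocols. Per the submitters' processing notes, the build was GRCm38 and the authors' tools included featureCounts 2.0.1 (Subread), HISAT2 2.2.1 and fastp 0.20.1. Their settings, annotation and use of strand: not given in the sources used here. The deposited values of each library are taken as FPKM, a unit read from the values: multiplied by the summed exon length of the gene (GENCODE vM21, 12216 of 12474 rows matched, 97.9%), they gave whole fragments within 0.05 in 98.4% to 98.54% of values per library, and in all 43 mitosis genes.

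The main test was limma 3.58.1 (R 4.3.3) with a mean-variance trend on log2(FPKM + 1), with 1 term per group over all 9 libraries. It covered the 11156 rows at 0.5 FPKM or more in at least 3 libraries (1318 were removed), with Benjamini-Hochberg adjustment over all of them at 0.05. At least 2-fold or 10-fold means called and past that ratio of group mean FPKM. Limma-voom on the recovered fragments covered 10766 rows. Other alternatives were RLE, TMM, upper quartile and quantile scaling, a pseudocount of 0.1, other filters, no trend, the replicate number as a block, fits of 2 groups and leaving out each library. Tables used python 3.11.15, pandas 2.3.3 and numpy 2.4.6, and the scripts were tested on simulated data. The confidence intervals given are from the limma-voom fit and, like the p-values, rest on the spread between libraries, which may be technical.

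The 43 genes and the other lists were chosen with earlier results of these data known. Named are all 43 genes, from each other list the 3 called genes with the smallest p in M1 vs Mock and at most 2 called genes of the other direction, and Foxm1, Mybl2, Lin54, E2f1, Cdkn1a, Cdkn1b, Ccnd1 and Fzr1. The result of 1 gene so named is not reported here. Csf1r and Mertk were singled out after their values were seen. Promoters are those of the 4 genes with the largest log2 falls in M1 that hold CHR letters and of the gene with the smallest fall, among the 37 genes in the table.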

Additional observations from a re-analysis of the deposited data

How the results depend on the processing

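Over the alternatives run, the counts of mitosis genes lower in M1 and in I stayed within 1.5 times of those reported, with 9 to 14 genes at least 2-fold lower in I than in M1 (9 in the fit of these 2 groups alone, which tests 37 of the 43). The number of mitosis genes higher in I than in M1 was 0 as reported and 1, Tpx2, with RLE, TMM, upper quartile and quantile scaling. It ranged from 0 to 1 when 1 library was left out. E2f1 in M1 vs Mock turned from −0.07 to 0.2113 with RLE, 0.2213 with TMM and 0.2238 with quantile scaling. Fzr1 turned from −0.17 to 0.1205 with RLE, 0.1309 with TMM, 0.02367 with upper quartile and 0.0618 with quantile scaling. These scalings move the median of all genes toward 0, and the cause beyond that was not tested. Leaving out a Mock library takes 5 mitosis genes under the filter on low values.

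The replicate numbers of the labels did not pair the libraries: same-numbered libraries deviated together with r = −0.115 to 0.047. With the replicate block the mitosis genes called lower numbered 43 in M1 vs Mock, 33 in I vs M1 and 43 in I vs Mock, as without it.

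Depth limits the low genes in I, where Cenpf held 13 fragments over 3 libraries. The sources used here do not give strand use, the origin of the replicates or the length of polarization.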
